A study of Mus musculus with 6 samples.

Results

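The genes described here are 34 members of antioxidant defence, glutathione metabolism and ferroptosis. They were chosen by symbol among the 31053 genes of 6 single-cell RNA sequencing count matrices, with earlier results of these data known. They fall into 6 groups: 3 regulators of the transcription factor NRF2, 8 of its targets in thioredoxin, peroxiredoxin, quinone and export reactions, 5 genes of the pentose phosphate pathway and NADPH supply, 9 of glutathione synthesis, recycling and transfer, 5 of superoxide and peroxide removal and 4 of ferroptosis. The tumours grew from Yumm5.2, an established mouse melanoma line, of which 350000 cells were placed under the skin of the right flank in C57BL/6 mice. All cells carried a hairpin against Cdkn2a, and each of the 3 lines carried a second hairpin: a control hairpin (control line) or 1 of 2 hairpins against Slc39a9, a zinc transporter gene (hairpin 1 and hairpin 2 lines). Mice with palpable tumours received 200 µg of an antibody that blocks the checkpoint receptor PD-1 (anti-PD1) or of a control antibody (IgG) 3 times a week until the tumours measured 0.5 cm3. Each line gave 1 library per antibody, so that the 4 groups held 1 library each for the control line under IgG and under anti-PD1, and 2 libraries each, from hairpins 1 and 2, for the Slc39a9 knockdown under either antibody. The control exists as 1 line, no library lacks the Cdkn2a hairpin, and the labels do not give the number of tumours behind a library.

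NRF2, the product of Nfe2l2, is held in the cytoplasm and passed to degradation by KEAP1 until oxidants or electrophiles modify KEAP1. It then enters the nucleus and binds antioxidant response elements near genes that reduce quinones, regenerate thioredoxin and make glutathione. Glutathione is built from glutamate, cysteine and glycine, and SLC7A11 brings in the cysteine as its oxidised dimer cystine, while NADPH from the pentose phosphate pathway and malic enzyme keeps glutathione and thioredoxin reduced. GPX4 spends glutathione to remove lipid peroxides and so holds back ferroptosis, an iron-dependent cell death that melanoma lines can undergo and that ACSL4 favours by placing oxidisable fatty acids into membranes.

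Levels are UMI counts (unique molecular identifiers, each standing for 1 captured RNA molecule) summed over the cells of a class in a library and given as CPM, counts scaled to a common class total. Tumour cells were taken by a gate of at most 1 Tyrobp UMI, no Ptprc UMI, at least 5 UMIs of Spp1, Grem1 and Cdkn2a together and at least 3000 UMIs in all, and macrophages by at least 3 UMIs of C1qa, C1qb and C1qc together. This gave 23665 tumour cells (2754 to 4766 per library, median 10376 to 15109 UMIs) and 9806 macrophages (1326 to 1925 per library, median 2564 to 4074 UMIs) of 43260 cells. Libraries held 58859821 to 83204249 UMIs. The same barcode string recurred often: 63.2% to 89.5% of the strings of the smaller library of a pair were found in the other. Over the shared strings the UMI totals of the cells ranked alike (Spearman 0.948 to 0.983). In a pair of libraries 50.7% to 62.1% of the shared strings were tumour cells in both, against 39.5% to 59.7% had the 2 classes been independent. For macrophages these shares were 2.58% to 7.08% and 1.53% to 4.33%. In every pair the observed share was the higher for both classes, and the cause was not tested. Of 3755 to 6724 shared strings per pair, 0 to 4 had equal UMI totals. All pairs of libraries shared strings, so no result could be given from libraries without them. In tumour cells 12 macrophage markers summed to 70.1 to 87.7 CPM against 13636 to 14959 CPM in macrophages, and 8 melanocyte markers summed to 75.6 to 100.2 CPM, below the 121 to 144 CPM of macrophages, so pigment cell genes did not mark the tumour cells. Slc39a9, the target of the hairpins, had 22.9 and 21.1 CPM in tumour cells of the control line, 8.19 and 8.47 in hairpin 1 and 12.1 and 11.1 in hairpin 2. Here and below the first value of a line is the IgG library and the second the anti-PD1 library.

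**Figure D1:**
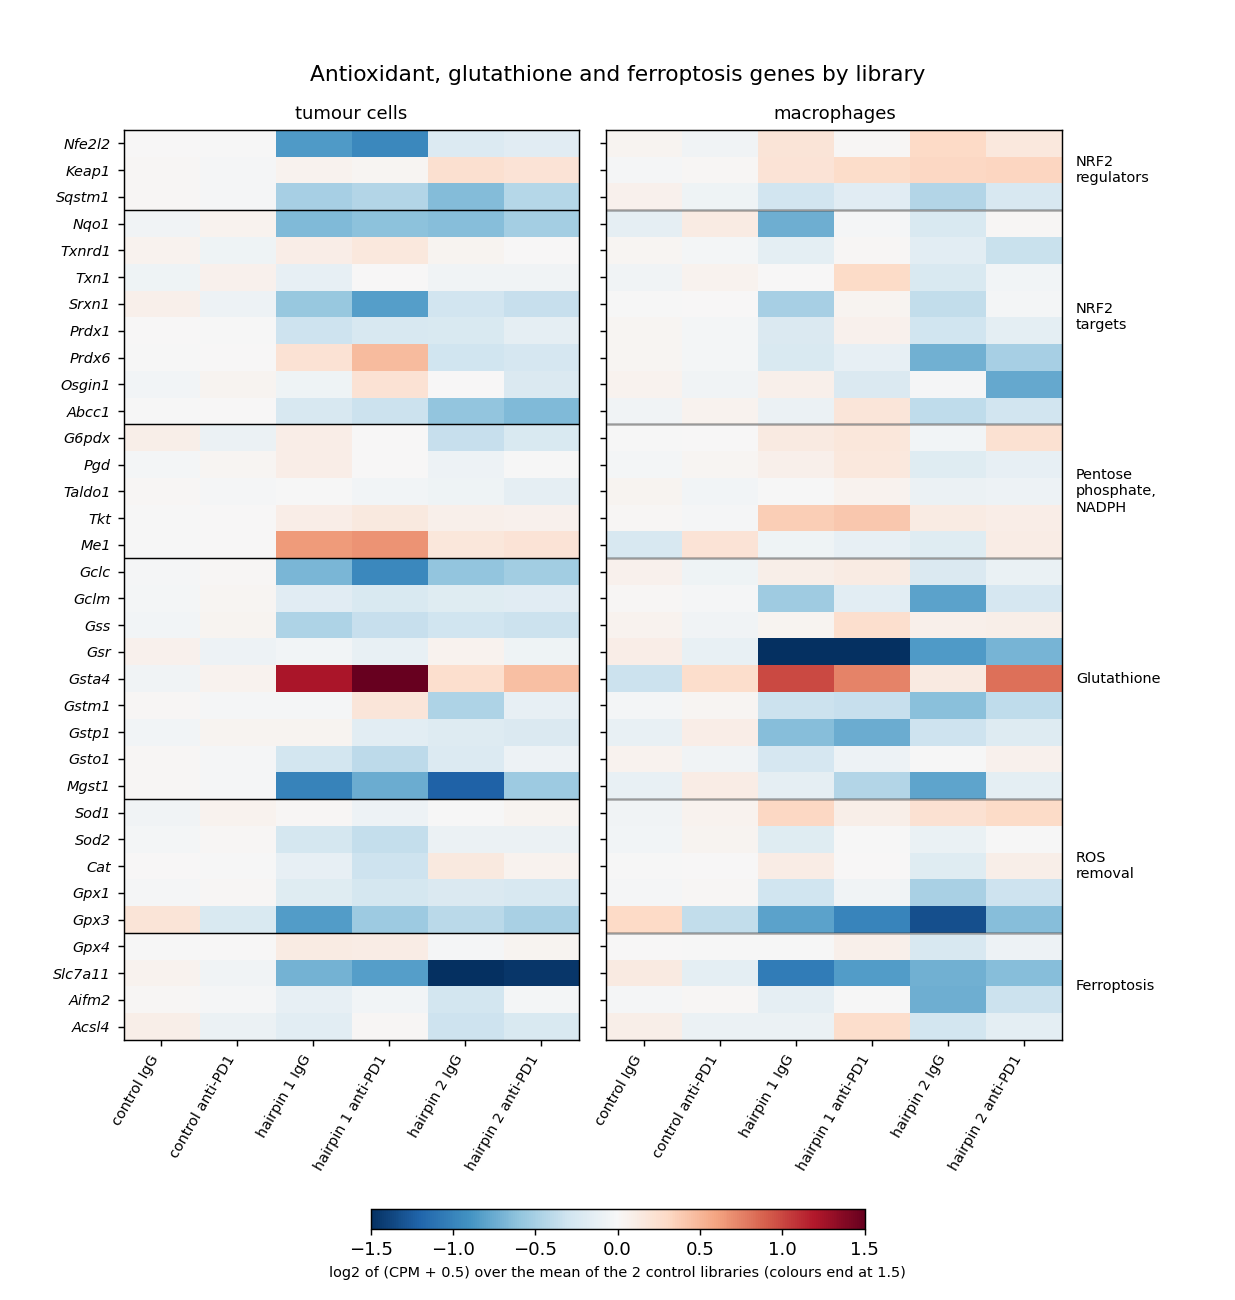
Each cell shows 1 gene in 1 library as log2 of (CPM + 0.5) over the mean of the 2 control libraries, in tumour cells (left) and macrophages (right), with genes grouped by role and colours ending at 1.5 in either direction. In tumour cells Nfe2l2, Sqstm1, Nqo1, Gclc, Mgst1 and Slc7a11 are among the rows blue in all 4 knockdown libraries, Nfe2l2 only faintly in hairpin 2. In macrophages Gsr, Slc7a11 and the scarce Gpx3 are among such rows.

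In tumour cells 12 members were lower in both Slc39a9 hairpin lines than in the control line. Among them were the NRF2 gene, the NRF2 targets Nqo1, Srxn1, Prdx1 and Abcc1, glutathione synthesis genes and the cystine importer. The targets Txnrd1, Txn1 and Osgin1, most pentose phosphate genes and Gpx4 were not called in either line. Against the control line, 17 of 34 members fell and 3 rose in hairpin 1, where 41.8% of all 15761 genes tested were called, 21% higher and 20.9% lower. In hairpin 2, 15 members fell and 0 rose, against 14.5% of all genes called, 7.46% higher and 7.03% lower. Called means an adjusted p under 0.05 in the edgeR quasi-likelihood test. The same 12 members fell in both lines: Nfe2l2, Sqstm1, Nqo1, Srxn1, Prdx1, Abcc1, Gclc, Gclm, Gss, Mgst1, Gpx1 and Slc7a11. Over all genes tested 5.21% fell in both lines, and both counts rest in part on the shared controls. The median log2 fold change over the members was -0.17 in hairpin 1 and -0.24 in hairpin 2, beside 0.00 over all genes tested in both. Both contrasts use the same 2 control libraries, and each sets 1 line against 1 line. The error in these fits is that between the 2 libraries of a line, after the antibody difference shared by the lines is removed. The variation from line to line is not in this error. CPM are per class total, while the fits also scale by TMM factors (0.966 to 1.03 in tumour cells), so folds and CPM ratios differ slightly. Without these factors 16 members fell and 3 rose in hairpin 1, and 11 fell and Keap1 rose in hairpin 2. Without 1 library at a time the hairpin 1 count was 15 to 19, and 14 of its 20 members kept their call throughout. Gclm, Cat and Gpx1 lost it without control anti-PD1 (-0.25, -0.25 and -0.28), and Prdx6, Gsr and Gpx3 as given below. The hairpin 2 count fell to 2 without control IgG, 5 without control anti-PD1, 5 without hairpin 2 IgG and 9 without hairpin 2 anti-PD1, and of its 15 members only Abcc1 and Slc7a11 kept their call in all 6 such fits. Sqstm1 and Mgst1 lost it without control IgG alone (-0.51 and -0.70) and Nqo1 without either control library (-0.66 and -0.65).

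The NRF2 regulators changed unequally. Nfe2l2 (ENSMUSG00000015839, minus strand of mm10 chr2:75675513-75704641), the gene of NRF2, had 266 and 264 CPM in the control line, 147 and 135 in hairpin 1 and 229.8 and 235 in hairpin 2. Both hairpin 1 libraries were lowest and the hairpin 2 libraries lay between them and the control, with no overlap between lines. Nfe2l2 fell in hairpin 1 (log2 fold change -1.00 ± 0.06, adjusted p = 0.000106) and less in hairpin 2 (-0.25 ± 0.06, adjusted p = 0.041), where the call was lost without either control library or either hairpin 2 library (-0.19 to -0.31). Sqstm1, the gene of the p62 adaptor that draws KEAP1 into autophagy, had 857 and 842 CPM in the control line, 602 and 626 in hairpin 1 and 541 and 632 in hairpin 2. It fell by a like amount in both lines (-0.56 ± 0.07 and -0.60 ± 0.07, adjusted p = 0.00158 and 0.00678). Keap1, the gene of the NRF2 inhibitor, had 81.6 and 80.2 CPM in the control line, 84.1 and 82.5 in hairpin 1 and 95.3 and 93.3 in hairpin 2. Neither line was called against the control (-0.05 ± 0.05 and 0.16 ± 0.05). Hairpin 2 was called higher only in the fit without TMM factors (0.22).

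Among the 8 NRF2 targets 4 fell and 1 rose in hairpin 1, and 5 fell in hairpin 2. Nqo1, the quinone reductase gene often used to read NRF2 activity, had 15.8 and 16.9 CPM in the control line, 10.2 and 10.5 in hairpin 1 and 10.3 and 11.4 in hairpin 2. All 4 knockdown libraries lay below both controls, and the log2 fold changes were -0.75 ± 0.09, adjusted p = 0.000859 in hairpin 1 and -0.65 ± 0.08, adjusted p = 0.0071 in hairpin 2. Srxn1, which restores overoxidised peroxiredoxins, had 67.9 and 61.1 CPM in the control line, 43.2 and 36.2 in hairpin 1 and 52.6 and 50.6 in hairpin 2. Its order followed that of Nfe2l2, with hairpin 1 lowest (-0.79 ± 0.07, adjusted p = 0.000303), hairpin 2 between (-0.38 ± 0.07, adjusted p = 0.0155) and a called difference between the hairpin lines (0.42 ± 0.07, adjusted p = 0.00502). Prdx1, a peroxiredoxin of the cytosol, had 1070.4 and 1054 CPM in the control line, 859 and 902 in hairpin 1 and 903 and 966 in hairpin 2. It fell in both lines (-0.36 ± 0.06 and -0.24 ± 0.06). Abcc1, a pump that exports glutathione conjugates, had 73.6 and 74.6 CPM in the control line, 62.9 and 59.3 in hairpin 1 and 48.9 and 46.6 in hairpin 2. Here hairpin 2 was lowest (-0.69 ± 0.06, adjusted p = 0.00225, against -0.37 ± 0.06, adjusted p = 0.00247 in hairpin 1).

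Prdx6, a peroxiredoxin that reduces phospholipid peroxides, was the 1 member called in opposite directions. It had 139 and 139 CPM in the control line, 162 and 194 in hairpin 1 and 112 and 117 in hairpin 2, so hairpin 1 lay above the control and hairpin 2 below it. The log2 fold changes were 0.26 ± 0.07, adjusted p = 0.0238 and -0.34 ± 0.07, adjusted p = 0.0258. The rise in hairpin 1 was not called without control anti-PD1 (0.18) or without hairpin 1 anti-PD1 (0.15). Nor was it called in tumour cells without a UMI of Mki67, Top2a or Cdk1 (0.05, adjusted p = 0.645). The fall in hairpin 2 was lost without any 1 of the 4 libraries compared (-0.26 to -0.42). The remaining targets were not called in either line. Txn1, the thioredoxin gene, had 1045 and 1145 CPM in the control line, 1009 and 1096 in hairpin 1 and 1059 and 1054 in hairpin 2. Txnrd1, its reductase, had 106 and 97.2 CPM in the control line, 109 and 113 in hairpin 1 and 104 and 102 in hairpin 2. Osgin1, a growth inhibitor induced by oxidative stress, had 3.66 and 3.87 CPM in the control line, 3.59 and 4.45 in hairpin 1 and 3.77 and 3.16 in hairpin 2. Both hairpin 1 libraries lay above the controls for Txnrd1, and the lines overlapped for Txn1 and Osgin1.

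Promoter sequence is shown for 4 members that fell together in both lines and carry, before their start, the core of the antioxidant response element, the site through which NRF2 acts. Of the 34 members 29 had a promoter window in RefSeq on GRCm38.p6, 250 bases before to 50 after a gene start. The core TGACNNNGC, searched on both strands, occurred in 10 of these 29 (34.5%), beside 14.0% of the 27025 genes with a window. Windows of Gsta4, Gclc, Gsr, Prdx6 and Abcc1 were not used here. Among the 12 members that fell in both lines, 10 had a window and 5 a match: Nfe2l2, Srxn1, Prdx1, Gclm and Mgst1. The sequences below are the 250 bases before the start, 5′ to 3′ on the strand of the gene, with the match in capitals, which reads GC first where it lies on the opposite strand.
Nfe2l2 (chr2:75704664-75704913, minus strand): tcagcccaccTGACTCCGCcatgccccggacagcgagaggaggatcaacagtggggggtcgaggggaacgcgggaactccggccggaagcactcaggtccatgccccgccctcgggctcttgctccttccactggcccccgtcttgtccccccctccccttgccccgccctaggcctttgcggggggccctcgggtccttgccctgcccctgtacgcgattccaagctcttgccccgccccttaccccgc
Prdx1 (chr4:116685349-116685598, plus strand): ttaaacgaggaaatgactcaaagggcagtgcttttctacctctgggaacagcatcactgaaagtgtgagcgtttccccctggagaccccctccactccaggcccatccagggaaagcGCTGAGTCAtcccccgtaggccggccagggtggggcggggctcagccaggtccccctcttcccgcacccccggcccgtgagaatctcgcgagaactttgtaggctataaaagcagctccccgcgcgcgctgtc
Gclm (chr3:122245307-122245556, plus strand): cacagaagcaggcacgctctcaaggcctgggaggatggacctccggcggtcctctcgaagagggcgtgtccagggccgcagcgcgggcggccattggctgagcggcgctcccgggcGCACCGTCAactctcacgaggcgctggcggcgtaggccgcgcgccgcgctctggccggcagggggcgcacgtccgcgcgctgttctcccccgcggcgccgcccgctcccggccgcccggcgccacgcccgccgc
Mgst1 (chr6:138140277-138140526, plus strand): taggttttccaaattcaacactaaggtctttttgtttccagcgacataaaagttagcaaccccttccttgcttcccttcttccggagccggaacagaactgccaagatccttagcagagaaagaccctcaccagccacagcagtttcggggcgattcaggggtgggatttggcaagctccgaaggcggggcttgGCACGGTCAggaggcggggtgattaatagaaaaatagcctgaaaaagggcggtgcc
The match begins 240 bases before the start in Nfe2l2, 133 in Prdx1, 134 in Gclm and 56 in Mgst1. That of Srxn1 lies 28 bases after the start, outside the stretch shown. G6pdx, Me1, Pgd, Sod1 and Txnrd1 also hold a match and did not fall in both lines. A match describes these letters and no binding was measured.

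Of the 5 pentose phosphate and NADPH genes 1 rose in hairpin 1 and 1 fell in hairpin 2. Tkt (transketolase), Taldo1 (transaldolase) and Pgd (phosphogluconate dehydrogenase) were not called in either line, with log2 fold changes of -0.16 to 0.04. Tkt had 149.8 and 151 CPM in the control line, 161 and 167 in hairpin 1 and 159 and 157 in hairpin 2. Taldo1 had 109.9 and 107 CPM in the control line, 108 and 105 in hairpin 1 and 104 and 99.2 in hairpin 2. Pgd had 101 and 105 CPM in the control line, 110.3 and 104 in hairpin 1 and 97.6 and 103 in hairpin 2. Both Tkt libraries of each knockdown line lay above both controls in CPM, and the step was not called. G6pdx, the entry enzyme of the pathway, had 54.2 and 47.9 CPM in the control line, 54.5 and 51.3 in hairpin 1 and 40.0 and 43.5 in hairpin 2. It fell in hairpin 2 (-0.35 ± 0.08, adjusted p = 0.0337), a call lost without either control library or hairpin 2 IgG. Me1, the cytosolic malic enzyme, went the other way with 34.7 and 35.1 CPM in the control line, 54.5 and 55.9 in hairpin 1 and 39.2 and 40.4 in hairpin 2. Both hairpin 1 libraries stood above all others, and Me1 rose in hairpin 1 (0.57 ± 0.05, adjusted p = 0.000442) and differed between the hairpin lines (-0.44 ± 0.05, adjusted p = 0.00189).

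Of the 9 glutathione genes 6 fell and 1 rose in hairpin 1, and 4 fell in hairpin 2. Gclc (ENSMUSG00000032350, plus strand of mm10 chr9:77754535-77794485), the catalytic subunit of the enzyme that limits glutathione synthesis, had 66.4 and 68.0 CPM in the control line, 41.7 and 34.1 in hairpin 1 and 44.4 and 46.7 in hairpin 2. All knockdown libraries lay below both controls, with log2 fold changes of -0.92 ± 0.10, adjusted p = 0.00063 and -0.62 ± 0.09, adjusted p = 0.0104, the latter not called without control IgG, control anti-PD1 or hairpin 2 IgG. Gclm, its modifier subunit, had 90.4 and 94.3 CPM in the control line, 82.3 and 78.7 in hairpin 1 and 81.3 and 81.7 in hairpin 2. It fell by less (-0.29 ± 0.06 and -0.24 ± 0.06). Gss, glutathione synthetase, which adds the glycine, had 28.3 and 30.1 CPM in the control line, 21.1 and 22.9 in hairpin 1 and 23.6 and 23.3 in hairpin 2. It fell in both lines (-0.50 ± 0.07, adjusted p = 0.00151 and -0.37 ± 0.07, adjusted p = 0.0157). Mgst1, a membrane-bound transferase with peroxidase activity, had 19.6 and 19.2 CPM in the control line, 9.43 and 11.4 in hairpin 1 and 8.06 and 13.2 in hairpin 2. It fell in both lines (-1.00 ± 0.17, adjusted p = 0.00357 and -0.96 ± 0.16, adjusted p = 0.0148). Gsto1, an omega-class transferase, had 954 and 936 CPM in the control line, 783 and 721 in hairpin 1 and 821 and 896 in hairpin 2. It fell in hairpin 1 (-0.42 ± 0.08, adjusted p = 0.00475, against -0.20 ± 0.07, adjusted p = 0.126 in hairpin 2), and the difference between the lines was not called (adjusted p = 0.0635). Gsr, which reduces oxidised glutathione, had 42.8 and 38.7 CPM in the control line, 39.8 and 37.6 in hairpin 1 and 42.3 and 39.0 in hairpin 2. Its call in hairpin 1 (-0.16 ± 0.06, adjusted p = 0.0484) was lost in each fit without 1 library. Gsta4, a transferase for lipid aldehydes, had 0.413 and 0.488 CPM in the control line, 1.72 and 2.34 in hairpin 1 and 0.634 and 0.801 in hairpin 2. At these low levels it rose in hairpin 1 (2.07 ± 0.22, adjusted p = 0.000703). Gstm1 and Gstp1, transferases of the mu and pi classes, were not called. Gstm1 had 36.4 and 35.3 CPM in the control line, 35.3 and 40.8 in hairpin 1 and 25.8 and 33.0 in hairpin 2. Gstp1 had 20.7 and 21.8 CPM in the control line, 21.9 and 19.0 in hairpin 1 and 18.5 and 18.2 in hairpin 2.

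Of the 5 genes that remove superoxide and peroxide, 4 fell in hairpin 1 and 1 in hairpin 2. Gpx1, the cytosolic glutathione peroxidase, had 758 and 772 CPM in the control line, 673 and 638 in hairpin 1 and 657 and 649 in hairpin 2. It fell in both lines (-0.31 ± 0.06, adjusted p = 0.00565 and -0.29 ± 0.06, adjusted p = 0.0242). Sod2, the mitochondrial superoxide dismutase, had 90.7 and 93.7 CPM in the control line, 76.4 and 71.6 in hairpin 1 and 86.8 and 86.6 in hairpin 2. Cat, catalase, had 63.1 and 62.1 CPM in the control line, 57.5 and 50.4 in hairpin 1 and 69.1 and 64.7 in hairpin 2. In both genes the hairpin 1 libraries were lowest, and both fell in hairpin 1 (-0.41 ± 0.06 and -0.31 ± 0.06) and both were higher in hairpin 2 than in hairpin 1 (0.26 ± 0.06, adjusted p = 0.0171 and 0.34 ± 0.06, adjusted p = 0.00721). Sod1, the cytosolic dismutase, had 249 and 267 CPM in the control line, 262 and 245 in hairpin 1 and 257 and 264 in hairpin 2. It was not called. Gpx3, a secreted peroxidase, had 0.605 and 0.320 CPM in the control line, 0.0370 and 0.157 in hairpin 1 and 0.228 and 0.189 in hairpin 2. It was called lower in hairpin 1, but with 2 to 41 UMIs per library, and the call was lost without control IgG or hairpin 1 IgG and in DESeq2.

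The ferroptosis genes did not move as one. Gpx4, the lipid peroxide reductase, had 567 and 567 CPM in the control line, 617 and 612 in hairpin 1 and 559 and 585 in hairpin 2. Its log2 fold changes were 0.03 ± 0.06 and -0.05 ± 0.06, not called in either line (adjusted p = 0.75 and 0.633). Slc7a11 (ENSMUSG00000027737, minus strand of mm10 chr3:49892526-50443614), the cystine importer, had 26.9 and 25.1 CPM in the control line, 15.8 and 14.5 in hairpin 1 and 6.71 and 9.18 in hairpin 2. The 3 lines did not overlap, and hairpin 2 was lowest. It fell in hairpin 1 (-0.87 ± 0.14, adjusted p = 0.00326) and further in hairpin 2 (-1.77 ± 0.15, adjusted p = 0.00241), with a called difference between them (-0.90 ± 0.15, adjusted p = 0.00546). Acsl4, which favours ferroptosis, had 131 and 116 CPM in the control line, 110.4 and 125 in hairpin 1 and 99.7 and 105 in hairpin 2. It fell in hairpin 2 (-0.33 ± 0.09, adjusted p = 0.0455), a call lost without control IgG, hairpin 2 IgG or hairpin 2 anti-PD1. Aifm2, which encodes the ubiquinone reductase FSP1 that protects from ferroptosis apart from GPX4, had 31.5 and 30.6 CPM in the control line, 28.4 and 30.1 in hairpin 1 and 25.6 and 30.5 in hairpin 2. It was not called (-0.18 ± 0.08 and -0.21 ± 0.08).

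**Figure D2:**
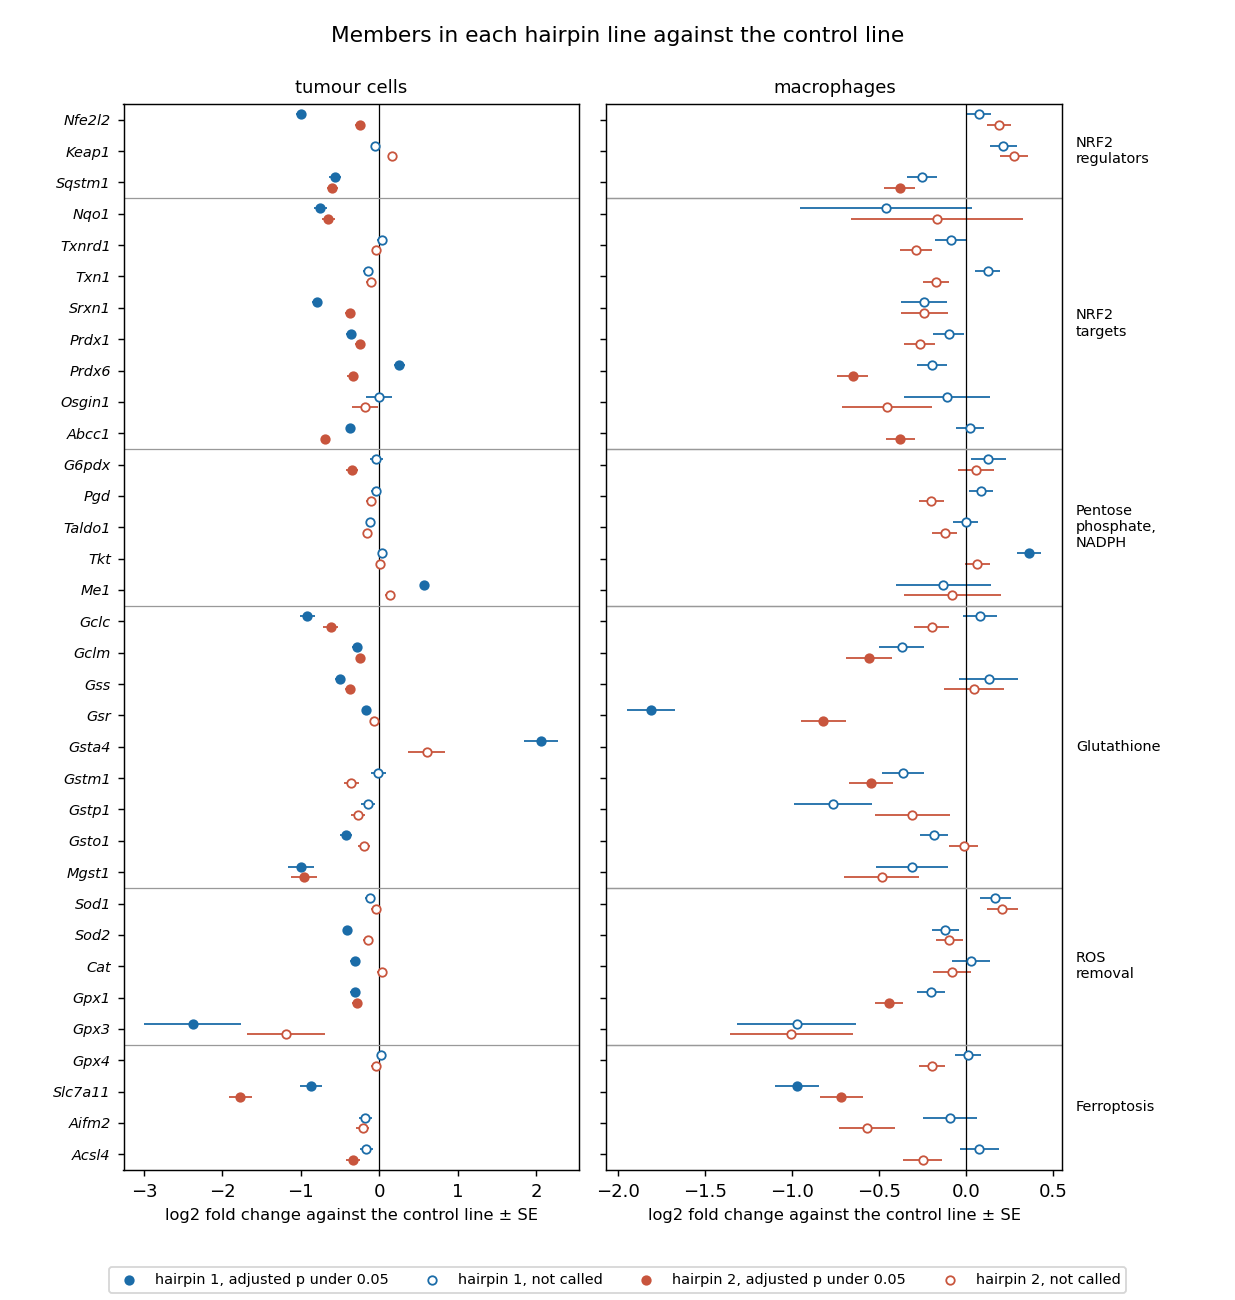
Log2 fold change of each member in the hairpin 1 line (blue) and hairpin 2 line (red) against the control line, with bars of 1 SE, in tumour cells (left) and macrophages (right); filled points have an edgeR adjusted p under 0.05. In tumour cells 17 blue and 15 red filled points lie below 0, and in macrophages 2 and 8.

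Other cell states moved with these differences. The sum of the 11 genes of the hypoxia score in tumour cells had 2833 and 2653 CPM in the control line, 2226 and 1982 in hairpin 1 and 1875 and 2159.6 in hairpin 2. The sum of the 10 genes of the cycling score had 639.8 and 628 CPM in the control line, 927 and 1217 in hairpin 1 and 1047 and 897 in hairpin 2. Markers of neutrophils, a cell type in which Slc7a11 is high (198.1 to 425 CPM in the neutrophil gate), summed in tumour cells to 86.4 and 74.8 CPM in the control line, 55.2 and 76.8 in hairpin 1 and 40.6 and 59.9 in hairpin 2. S100a8 (7.07 to 63.6 CPM) and Mmp9 (17.1 to 65.4) made up most of this sum. S100a8 was higher in the control line and Mmp9 in hairpin 1, while each of the other 8 markers had at most 2.72 CPM. Up to 2 of the 10 markers were at 0. C1q marks macrophages, so tumour cells without any C1q UMI are not thereby free of neutrophil RNA. In those cells Slc7a11 had log2 fold changes of -0.82 and -1.68. When cells were split within each library at the median hypoxia score, an alternative chosen after seeing the data, cells above the median gave Slc7a11 -1.63 in hairpin 1 and -2.16 in hairpin 2. Below the median hairpin 2 was still lower (-0.88, adjusted p = 0.0122) but hairpin 1 was higher than the control (0.44, adjusted p = 0.0259), so the direction for hairpin 1 turned with the state of the cells. Mgst1 in hairpin 1 was -1.45 above the median and -0.27 below it (adjusted p = 0.127). By contrast Nfe2l2, Srxn1 and Gclc in hairpin 1 were low below the median (-1.14, -0.76 and -0.86) and above it (-0.90, -0.82 and -0.98). The difference between the cells above and below the median was not tested.

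With both hairpins pooled against the control (4 against 2 libraries), edgeR called 0 of 34 members and 0% of the 15761 genes in tumour cells. At an unadjusted p under 0.05 there were 13 members and 3110 genes, and DESeq2 called 11 members, all lower, and 1395 genes. The pooled fits, here and in macrophages, took libraries of the same line as replicates. Both control libraries came from the same line, so knockdown was not tested against variation between control lines. All 4 knockdown libraries lay below both control libraries in 16 members and above both in 4, and overlapped them in 14. Over all genes tested the shares were 14.7% below and 28.8% above. Anti-PD1 changed no member detectably. In tumour cells edgeR called 0 members and 0% of genes (0 members and 122 genes at an unadjusted p under 0.05), and DESeq2 0 genes. The log2 differences of anti-PD1 from IgG in tumour cells were -0.17 to 0.35, the highest for Gsta4 and Mgst1.

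**Figure D3:**
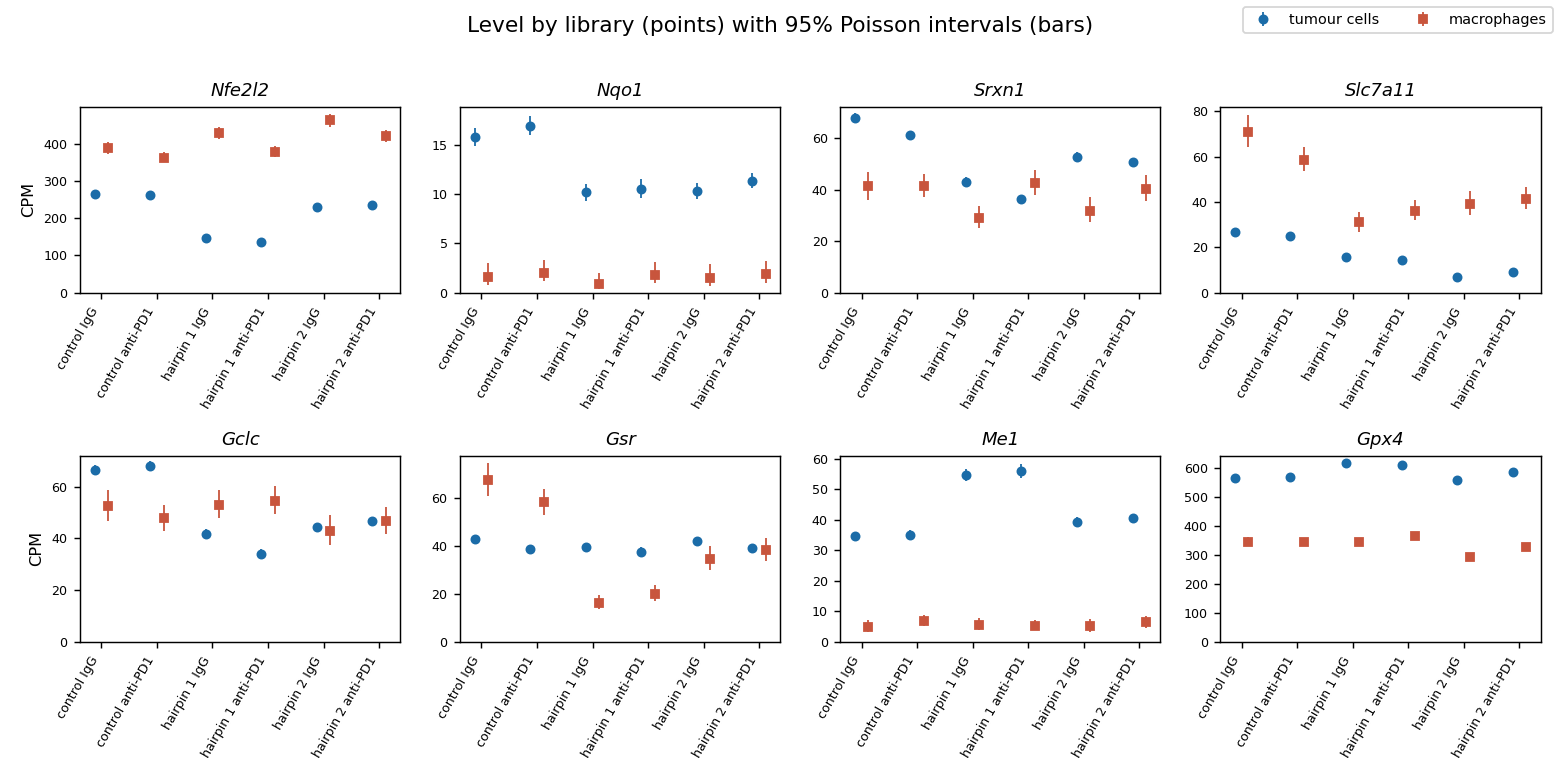
Level in CPM of 8 members in each library, with 95% Poisson intervals that cover counting error only, in tumour cells (blue circles) and macrophages (red squares). Nfe2l2, Nqo1, Srxn1 and Gclc are lower in tumour cells of all 4 knockdown libraries than in both controls, Gsr is lower in macrophages while tumour cells stay at 37.6 to 42.8, and Slc7a11 is lower in both classes.

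In macrophages of the same tumours, host cells that were given no hairpin, 2 members fell and 1 rose with hairpin 1 (9.22% of 12647 genes called, 4.32% higher and 4.9% lower) and 8 fell and 0 rose with hairpin 2 (3.87% of genes called, 1.5% higher and 2.37% lower). Between the hairpins 6 members were called (7.77% of genes), 1 higher and 5 lower with hairpin 2. Gsr (ENSMUSG00000031584, plus strand of mm10 chr8:33652523-33698163) and Slc7a11 fell in both, as did 1.1% of all genes tested, and Slc7a11 was the 1 member called lower in both classes and both lines. Gsr had 67.5 and 58.4 CPM in the control line, 16.4 and 20.1 in hairpin 1 and 34.6 and 38.5 in hairpin 2. The 3 lines did not overlap, with hairpin 1 lowest (-1.81 ± 0.14, adjusted p = 8.46e-05, against -0.82 ± 0.13, adjusted p = 0.0074 in hairpin 2). Slc7a11 had 70.9 and 58.6 CPM in the control line, 30.9 and 36.0 in hairpin 1 and 39.3 and 41.4 in hairpin 2. All 4 knockdown libraries lay below both controls (-0.97 ± 0.12, adjusted p = 0.00115 and -0.72 ± 0.12, adjusted p = 0.0117). Without hairpin 2 IgG both hairpin 2 calls were lost (-0.72 and -0.63), and without control IgG that of Slc7a11 (-0.50).

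Both genes are high in neutrophils: the neutrophil gate had 255 to 496 CPM of Gsr and 198.1 to 425 CPM of Slc7a11. Neutrophil markers in the macrophage gate were also lower in all 4 knockdown libraries, with a sum of 481 and 485 CPM in the control line, 114 and 213 in hairpin 1 and 255 and 226 in hairpin 2. Up to 2 of the 10 markers were at 0 in a library. A stricter set of macrophages had no UMI of Grem1, Cdkn2a, S100a8 or S100a9, while Spp1 and the other neutrophil markers were allowed. There Gsr had 60.1 and 60.7 CPM in the control line, 14.8 and 13.6 in hairpin 1 and 38.4 and 39.1 in hairpin 2. The log2 fold changes there were -2.11 and -0.67 for Gsr, and -0.94 and -0.49 for Slc7a11, all 4 called. The MHC class II genes of macrophages also differed, with sums of 4105 and 4280.3 CPM in the control line, 8440.4 and 5143 in hairpin 1 and 11821 and 10178 in hairpin 2. When macrophages were split within each library at the median class II score, also chosen after seeing the data, Gsr in hairpin 1 was -1.10 below the median and -2.07 above it, both called. Slc7a11 in hairpin 1 was -0.59 below, not called, and -0.95 above.

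The other members that fell in macrophages of hairpin 2 tumours were Sqstm1 (-0.38 ± 0.09), Prdx6 (-0.65 ± 0.09), Abcc1 (-0.38 ± 0.08), Gclm (-0.56 ± 0.13), Gstm1 (-0.54 ± 0.12) and Gpx1 (-0.44 ± 0.08). Sqstm1 had 498 and 454 CPM in the control line, 389.9 and 424 in hairpin 1 and 351 and 403 in hairpin 2. The hairpin 2 IgG library was lowest. Abcc1 had 103 and 111 CPM in the control line, 101 and 121 in hairpin 1 and 82.1 and 87.8 in hairpin 2. Both hairpin 2 libraries were below all others. Gclm had 74.6 and 72.3 CPM in the control line, 50.6 and 65.7 in hairpin 1 and 41.9 and 61.5 in hairpin 2. All 4 knockdown libraries were below both controls, the IgG libraries most. Gstm1 had 37.0 and 38.2 CPM in the control line, 30.0 and 29.5 in hairpin 1 and 24.3 and 28.7 in hairpin 2. All 4 were again below both controls. Prdx6 had 144 and 137 CPM in the control line, 120.3 and 129 in hairpin 1 and 85.0 and 99.4 in hairpin 2. The hairpin 2 libraries were below all others. Gpx1 had 1338 and 1363 CPM in the control line, 1099 and 1304 in hairpin 1 and 964 and 1091 in hairpin 2. The hairpin 1 anti-PD1 library lay near the controls. The hairpin 2 count fell from 8 to 2 without control IgG, to 0 without hairpin 2 IgG and to 4 without hairpin 2 anti-PD1, and DESeq2 called 5. Tkt had 177 and 172 CPM in the control line, 227 and 232 in hairpin 1 and 190.4 and 187 in hairpin 2, with the hairpin 1 libraries above all others. It rose with hairpin 1 (0.36 ± 0.07, adjusted p = 0.00987), a call lost without control anti-PD1. The 10 genes of the cycling score summed in macrophages to 521 and 646 CPM in the control line, 1234 and 1253 in hairpin 1 and 781 and 699.6 in hairpin 2. The part of cycling in the differences of macrophage members was not tested. Nfe2l2 had 388 and 364 CPM in the control line, 429.7 and 379 in hairpin 1 and 463 and 421 in hairpin 2 in macrophages. Neither contrast was called (0.08 ± 0.07 and 0.19 ± 0.07). In the pooled test edgeR called 0 members and 0.0633% of genes, 0.0395% higher and 0.0237% lower (9 members and 1456 genes at an unadjusted p under 0.05), and DESeq2 called 2. For anti-PD1 against IgG both tools called 0 members, and edgeR 0% of genes (1 members and 368 genes at an unadjusted p under 0.05). Whether the knockdown difference itself differed between tumour cells and macrophages was tested in 1 model over both classes: 0 members and 0.119% of genes, 0.0566% higher and 0.0628% lower, were called by edgeR (9 members and 1711 genes at an unadjusted p under 0.05) and 0 members by DESeq2. The values nearest to a call were those of Gsr (1.18 ± 0.29, adjusted p = 0.235) and Nfe2l2 (-0.76 ± 0.20, adjusted p = 0.259), so a difference between the classes was not established for either.

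Tumour cells and macrophages differed in most members, as they did in most genes. With the library as a block, 15 members were higher and 11 lower in tumour cells, beside 79.9% of 15913 genes called, 41.3% higher and 38.6% lower. Nqo1 (2.93 ± 0.15, adjusted p = 3.63e-08), Me1 (2.91 ± 0.13, adjusted p = 1.28e-08), Gsto1 (2.14 ± 0.06, adjusted p = 7.41e-10), Gstp1 (1.30 ± 0.12, adjusted p = 3.42e-06), Txn1 (1.27 ± 0.07, adjusted p = 4.2e-08) and Gpx4 (0.78 ± 0.05, adjusted p = 1.57e-07) were higher in tumour cells. Nqo1 had 10.2 to 16.9 CPM in tumour cells and 0.892 to 2.03 in macrophages, and Me1 had 34.7 to 55.9 and 4.80 to 6.71. In both genes every tumour cell value was above every macrophage value. In macrophages Gsto1 had 203 and 190.0 CPM in the control line, 165 and 187 in hairpin 1 and 195 and 206 in hairpin 2. Txn1 had 417 and 450.3 CPM in the control line, 435 and 531 in hairpin 1 and 371 and 423 in hairpin 2 there. Gpx4 had 346 and 343 CPM in the control line, 343 and 364 in hairpin 1 and 292 and 327 in hairpin 2. Each of these 3 was below the tumour cell value of the same library. The 3 genes of the tumour gate summed to 1160.2 to 3000.1 CPM in macrophages and 6657 to 10251 in tumour cells. In macrophages without a UMI of Grem1, Cdkn2a, S100a8 or S100a9, Me1 had 1.24 to 2.25 CPM, Gsto1 116 to 141 and Nqo1 0.406 to 2.25. Txn1 had 340 to 423 CPM there and Gpx4 262 to 342. The part of tumour cell RNA in the low macrophage values was not tested. Lower in tumour cells were Gpx3 (-4.49 ± 0.32, adjusted p = 4.98e-07), Taldo1 (-1.60 ± 0.05, adjusted p = 6.99e-10), Slc7a11 (-1.60 ± 0.19, adjusted p = 2.32e-05), Nfe2l2 (-1.00 ± 0.15, adjusted p = 0.00014), Pgd (-0.82 ± 0.05, adjusted p = 1.88e-07) and Gpx1 (-0.80 ± 0.06, adjusted p = 1.18e-06). In macrophages Gpx3 had 10.1 and 6.21 CPM in the control line, 4.46 and 3.85 in hairpin 1 and 2.96 and 5.04 in hairpin 2, where tumour cells had at most 0.605. Taldo1 had 329 and 312 CPM in the control line, 319 and 332 in hairpin 1 and 301 and 305 in hairpin 2 in macrophages. Pgd had 178 and 185 CPM in the control line, 191 and 202 in hairpin 1 and 159.8 and 167 in hairpin 2 there, and both genes were above all tumour cell values. Among the NADPH genes Me1 was thus higher in tumour cells and 3 of the 4 pentose phosphate genes, Taldo1, Pgd and Tkt (-0.34 ± 0.06), in macrophages.

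**Figure D4:**
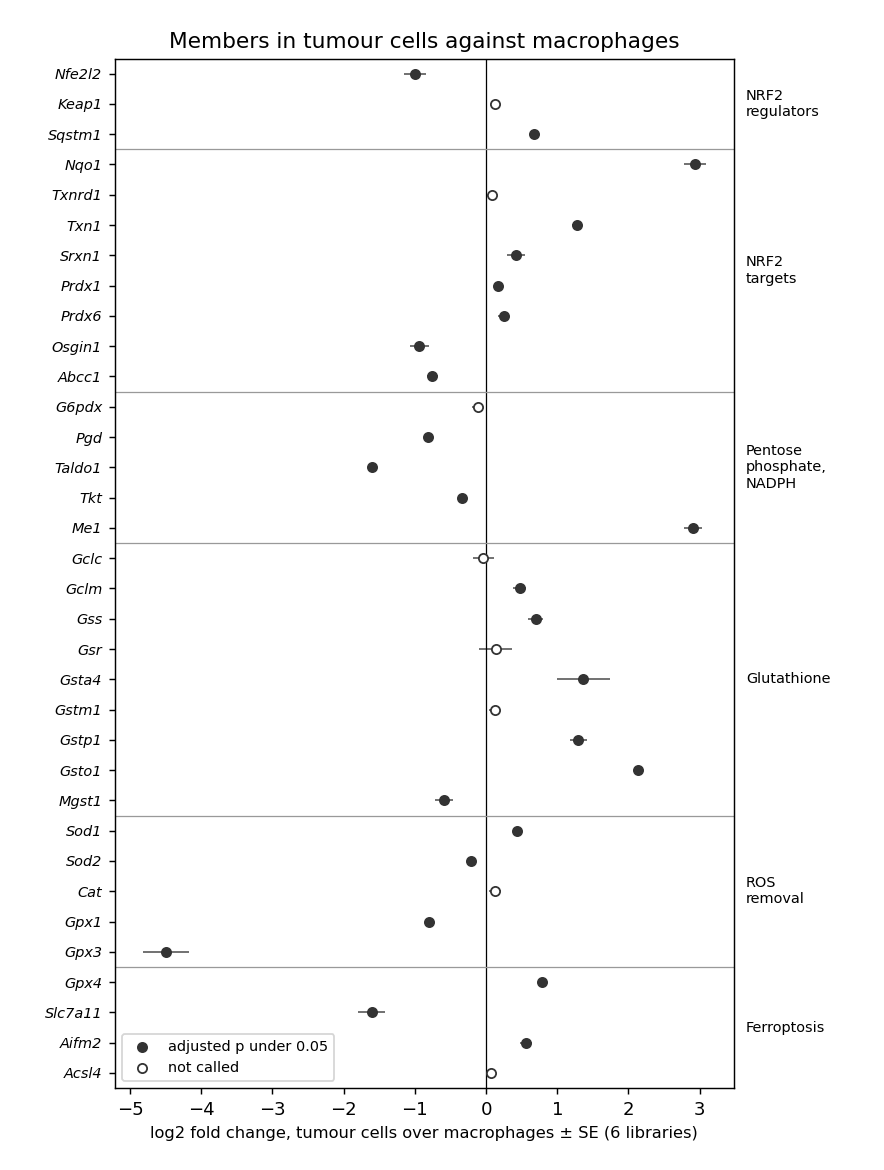
Log2 fold change of tumour cells over macrophages for each member, with bars of 1 SE, from 6 libraries with the library as a block; filled points have an edgeR adjusted p under 0.05. Nqo1 and Me1 lie near 3, Gsto1 near 2, and Gpx3 lies lowest at -4.49.

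Within tumour cells most members differed with cell state, as most genes did. Cells of each library were ranked by the summed UMIs of a score list per 10000 UMIs, and the top quartile was compared with the bottom quartile, with the library as a block. By the cycling score 15 members were higher and 8 lower (60.9% of genes called, 30.2% higher and 30.6% lower), and cells of the top quartile held more UMIs (median 11541 to 20214.5 per library, against 6800 to 8652). All 5 pentose phosphate and NADPH genes were higher in cycling cells, at log2 fold changes of 0.34 to 0.67, with G6pdx highest (0.67 ± 0.09, adjusted p = 8.57e-05). Txn1 was higher in cycling cells (0.93 ± 0.09, adjusted p = 5.04e-06), from 637 to 948 CPM to 1429 to 1554, and so was Gsr (0.86 ± 0.10, adjusted p = 3.21e-05). Slc7a11 (-1.30 ± 0.11, adjusted p = 2.29e-06), Mgst1 (-1.28 ± 0.12, adjusted p = 6.61e-06), Gstm1 (-0.69 ± 0.11, adjusted p = 0.000183), Sqstm1 (-0.51 ± 0.06, adjusted p = 2.28e-05) and Nfe2l2 (-0.36 ± 0.05, adjusted p = 0.000154) were lower in cycling cells. Gpx4 moved by 0.13 ± 0.05.

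By the hypoxia score 16 members were higher and 3 lower in the top quartile (55.1% of genes called, 27.4% higher and 27.7% lower). All 3 NRF2 regulators were higher, Sqstm1 most (0.95 ± 0.10, adjusted p = 6.99e-05), from 488 to 593 CPM to 661 to 1289. Gclc (0.92 ± 0.14, adjusted p = 0.000681), Mgst1 (1.19 ± 0.27, adjusted p = 0.0054), Abcc1 (0.70 ± 0.05, adjusted p = 1.04e-05) and Nqo1 (0.63 ± 0.19, adjusted p = 0.0202) were higher as well, and G6pdx (-0.46 ± 0.06, adjusted p = 0.000259), Osgin1 and the scarce Gsta4 were lower. For Nqo1 the rise was in both control and both hairpin 2 libraries. In hairpin 1 it had 10.3 and 11.6 CPM in the bottom quartile and 9.10 and 9.05 in the top. The Nqo1 call was not kept in every fit without 1 library. Slc7a11 was not called (0.99 ± 0.48, adjusted p = 0.105), and the lines differed in its direction. In the bottom quartile it had 8.70 and 10.7 CPM in the control line, 22.3 and 25.2 in hairpin 1 and 5.79 and 7.95 in hairpin 2. In the top quartile it had 48.7 and 51.5 CPM in the control line, 18.4 and 9.98 in hairpin 1 and 9.87 and 14.5 in hairpin 2. The top quartile lay above the bottom quartile in both control and both hairpin 2 libraries and below it in both hairpin 1 libraries. Mgst1 in the bottom quartile had 8.89 and 12.6 CPM in the control line, 11.9 and 13.3 in hairpin 1 and 5.57 and 11.0 in hairpin 2. In the top quartile it had 39.0 and 37.6 CPM in the control line, 11.9 and 13.2 in hairpin 1 and 13.1 and 23.2 in hairpin 2, with the step in the control line again larger than in hairpin 1 or hairpin 2. These differences between lines in the gradient were not tested.

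In macrophages, ranked by MHC class II genes, 10 of 31 tested members were higher and 5 lower in the top quartile (27.9% of genes called, 14.6% higher and 13.3% lower; DESeq2 called 8 members). Slc7a11 (1.83 ± 0.20, adjusted p = 1.18e-05) and Gsr (1.46 ± 0.22, adjusted p = 0.000243) rose most. Gsr in the top quartile had 125 and 123 CPM in the control line, 11.6 and 23.2 in hairpin 1 and 51.3 and 62.7 in hairpin 2. In the bottom quartile it had 45.4 and 32.4 CPM in the control line, 15.3 and 16.1 in hairpin 1 and 10.9 and 21.9 in hairpin 2. The step was smaller in hairpin 1 than in the other lines, a difference that was not tested. Of the 10 neutrophil markers 7 were tested in this comparison. Il1r2 (4.42 ± 0.28, adjusted p = 9.07e-08), S100a9 (1.62 ± 0.48, adjusted p = 0.0223) and Csf3r (1.13 ± 0.12, adjusted p = 1.12e-05) were higher in the same quartile, and 4 were not called, among them S100a8 (0.17 ± 0.32). Their part in the rise was not tested. Nfe2l2 (0.68 ± 0.10, adjusted p = 0.000125) and Taldo1 (0.63 ± 0.07, adjusted p = 1.25e-05) also rose, while Txn1 (-0.38 ± 0.08, adjusted p = 0.00246), Gpx4 (-0.37 ± 0.07, adjusted p = 0.00184) and Prdx1 (-0.29 ± 0.08, adjusted p = 0.0122) fell.

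**Figure D5:**
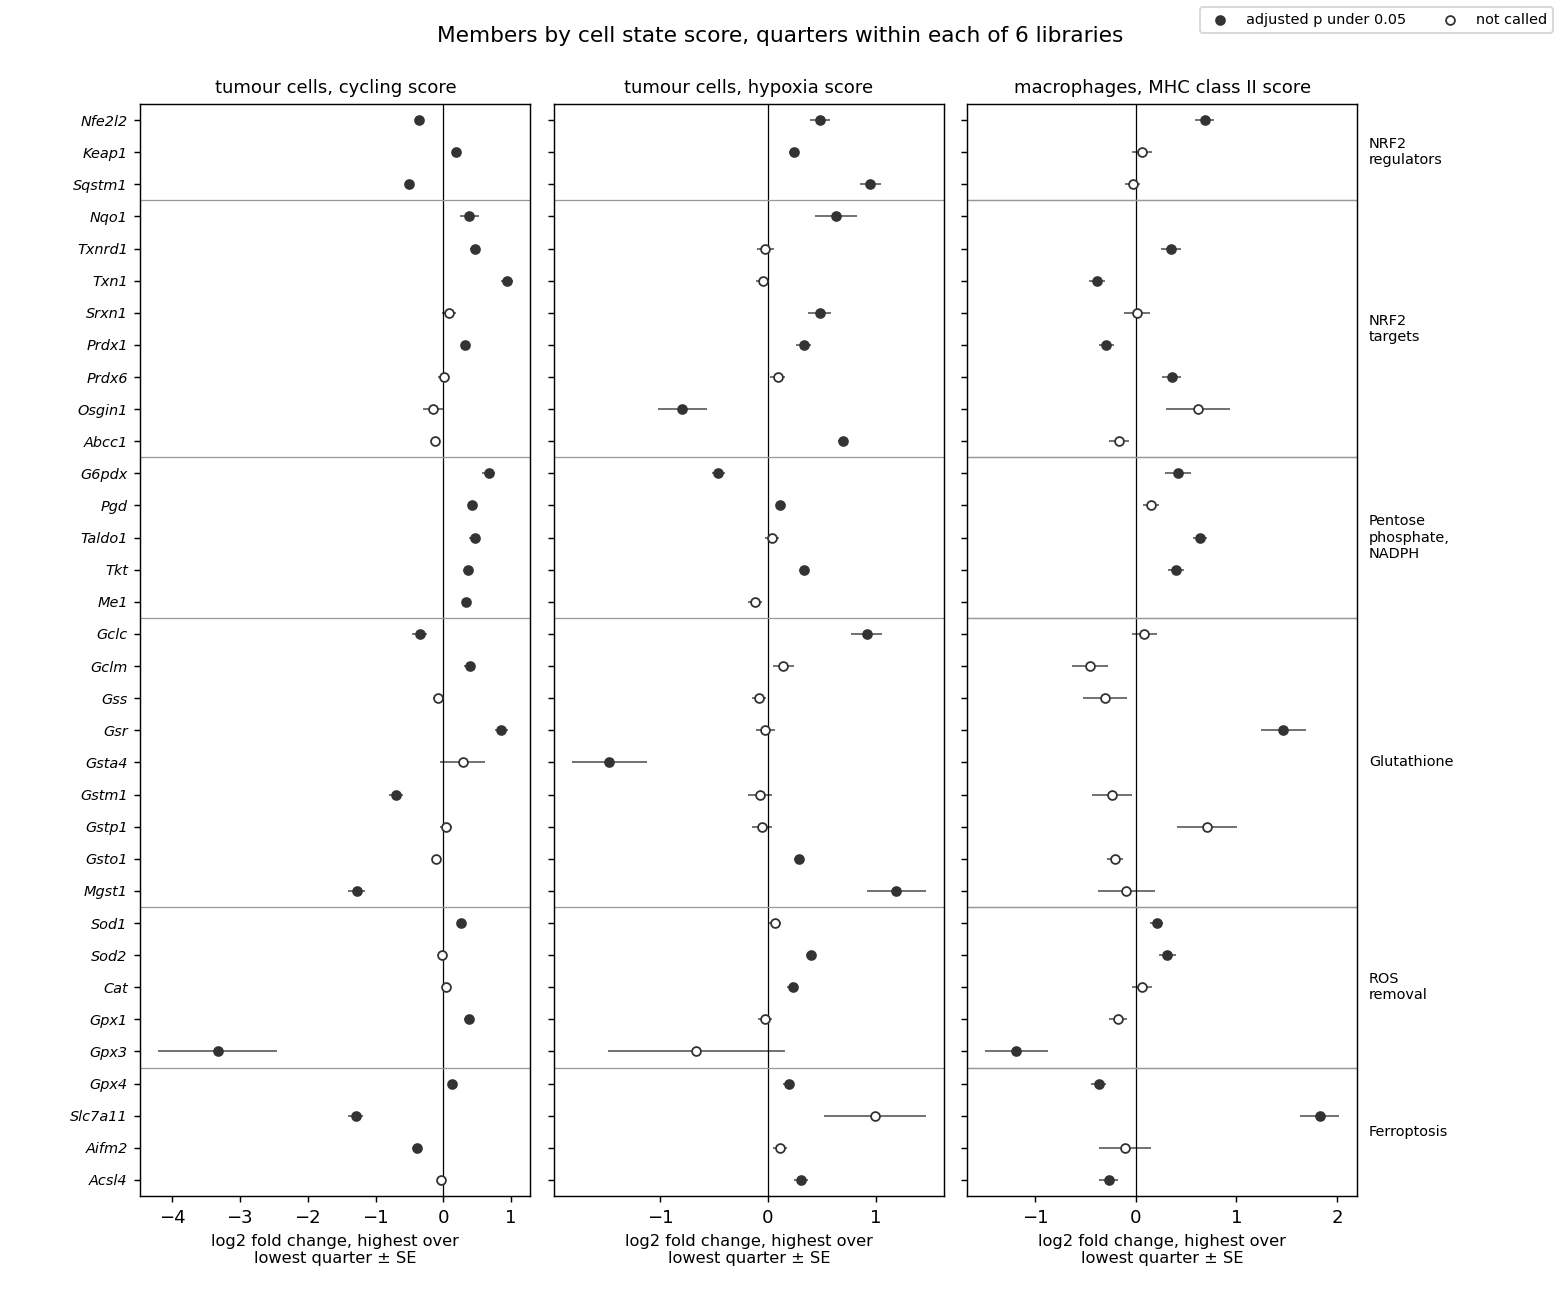
Log2 fold change of the top over the bottom quartile of cells for the cycling score and hypoxia score in tumour cells and the MHC class II score in macrophages, with bars of 1 SE, quartiles taken within each of 6 libraries; filled points have an edgeR adjusted p under 0.05. Slc7a11 lies at -1.30 by cycling and 1.83 by MHC class II, and the 5 pentose phosphate and NADPH genes lie above 0 by cycling.

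The wider pathway was read from 101 other NRF2, glutathione, pentose phosphate, iron and ferroptosis genes. In tumour cells 27 of the 92 tested rose and 34 fell in hairpin 1, where the median was -0.02, while 5 rose and 21 fell in hairpin 2, where it was -0.07. Over all genes tested there, 21% rose and 20.9% fell in hairpin 1, and 7.46% rose and 7.03% fell in hairpin 2. In macrophages 3 of 87 rose and 11 fell with hairpin 1, and 0 rose and 6 fell with hairpin 2. The shares of all genes in macrophages were 4.32% and 4.9% with hairpin 1, and 1.5% and 2.37% with hairpin 2. Chac1, which degrades glutathione, had 48.4 and 49.9 CPM in the control line, 12.9 and 14.9 in hairpin 1 and 18.1 and 22.7 in hairpin 2 in tumour cells. It fell in both lines (-1.92 ± 0.09, adjusted p = 4.58e-05 and -1.34 ± 0.08, adjusted p = 0.00169). Sod3, the extracellular superoxide dismutase, fell in both (-1.51 ± 0.10, adjusted p = 0.000126 and -0.61 ± 0.10, adjusted p = 0.0123). So did Esd, an esterase that frees glutathione from its formaldehyde adduct (-0.71 ± 0.05, adjusted p = 0.000211 and -0.53 ± 0.05, adjusted p = 0.00458), and Dhcr7, the last enzyme of cholesterol synthesis (-0.85 ± 0.07, adjusted p = 0.000218 and -0.39 ± 0.06, adjusted p = 0.0139). Txnip, the inhibitor of thioredoxin, had 21.9 and 21.9 CPM in the control line, 60.6 and 68.9 in hairpin 1 and 39.3 and 31.9 in hairpin 2. It rose in both lines (1.47 ± 0.11, adjusted p = 0.000172 and 0.64 ± 0.11, adjusted p = 0.0139). Prdx4, the peroxiredoxin of the endoplasmic reticulum, had 104 and 102 CPM in the control line, 206 and 219 in hairpin 1 and 132 and 132 in hairpin 2. It rose in both (0.96 ± 0.05, adjusted p = 8.93e-05 and 0.30 ± 0.05, adjusted p = 0.0178). Gstm2, a mu-class transferase, had 2.17 and 2.20 CPM in the control line, 14.0 and 16.0 in hairpin 1 and 2.65 and 2.64 in hairpin 2. It rose in hairpin 1 (2.68 ± 0.12, adjusted p = 4.58e-05) and was not called in hairpin 2 (0.22 ± 0.13, adjusted p = 0.287). It shares much sequence with other mu-class genes, so its counts are uncertain. In macrophages Slc40a1, the iron exporter ferroportin, had 90.6 and 75.9 CPM in the control line, 21.1 and 16.4 in hairpin 1 and 25.4 and 36.2 in hairpin 2. It fell with both (-2.18 ± 0.18, adjusted p = 0.000136 and -1.45 ± 0.17, adjusted p = 0.002).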

How the data were processed

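Tumours were profiled by droplet single-cell RNA sequencing, 1 library for each of 3 lines and 2 antibodies. The deposited files hold UMI counts per gene and cell barcode, as the authors made them, with Cell Ranger 7.0.1 and the build mm10 named in the submitters' processing notes. From these counts, cells with under 300 genes or over 20% mitochondrial UMIs and doublets called by Scrublet in scanpy 1.11.5 (expected rate 0.06) were removed, which left 43260 of 43929 barcodes. A cell that met both gates (17 to 34 per library) counted as a tumour cell. Doublet calls were 0.145% to 0.511% of the cells in the tumour gate and 2.43% to 4.30% of those in the macrophage gate. Coordinates of genes are those of GENCODE M21.

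Counts were summed per class and library and tested over all genes with edgeR 4.0.16 in R 4.3.3 (quasi-likelihood F test, TMM scaling, filterByExpr, Benjamini-Hochberg adjustment over all genes tested). SE is the absolute log2 fold change over the square root of F. The hairpin fits used line and treatment, the pooled fits genotype and treatment, each over all 6 libraries. The fits between classes and between quartiles of cells had the library as a block. DESeq2 1.42.0 was an alternative. Replicate numbers of the 2 knockdown groups name the hairpin line, so libraries of the same number share a line. Some of the fits were run on simulated counts, drawn with a fixed dispersion and without variation from line to line. That simulation cannot show how the calls fare under such variation. The members and gene lists were chosen with earlier results of these data known. The rule for naming was all 34 members, with every library for members called in any fit, and the 8 other pathway genes with the smallest adjusted p in a knockdown fit. Macrophage levels of members called only between classes or quartiles are partly left as ranges or out. The labels do not say whether libraries come from separate tumours, so p-values measure the spread between libraries. Intervals cover counting error only.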

Additional observations from a re-analysis of the deposited data

Results flagged for a closer look

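Members are listed here because the effect of the 2 hairpins differed, by the edgeR test of hairpin 2 against hairpin 1 with an adjusted p under 0.05. Both lines carry the same Cdkn2a hairpin and target the same gene, and each value compares 1 line with 1 line. In tumour cells 29.3% of all genes and in macrophages 7.77% differed in this way. In tumour cells the log2 difference of hairpin 2 from hairpin 1 was above 0 for Nfe2l2 (0.75 ± 0.06), Keap1 (0.21 ± 0.05), Srxn1 (0.42 ± 0.07), Sod2 (0.26 ± 0.06) and Cat (0.34 ± 0.06). It was below 0 for Prdx6 (-0.60 ± 0.07), Abcc1 (-0.32 ± 0.06), G6pdx (-0.31 ± 0.08), Me1 (-0.44 ± 0.05), Gsta4 (-1.46 ± 0.21), Gstm1 (-0.34 ± 0.10) and Slc7a11 (-0.90 ± 0.15). In macrophages Gsr was above 0 (0.99 ± 0.14), and Txn1 (-0.30 ± 0.07), Prdx6 (-0.45 ± 0.09), Abcc1 (-0.40 ± 0.08), Pgd (-0.29 ± 0.07) and Tkt (-0.30 ± 0.07) were below. Slc39a9 itself had 8.19 and 8.47 CPM in hairpin 1 and 12.1 and 11.1 in hairpin 2 tumour cells.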

How the results depend on the processing

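Counts are of members called by edgeR. Slc7a11 in tumour cells of hairpin 1 reversed to 0.44 in cells below the median hypoxia score, and the cause was not tested. With DESeq2 the count moved from 0 to 11 for the pooled knockdown in tumour cells, from 0 to 2 for the pooled knockdown in macrophages, from 8 to 5 for hairpin 2 and from 6 to 2 for hairpin 2 against hairpin 1 in macrophages, and from 15 to 8 for the MHC class II quartiles. Without the filter on low counts it moved from 3 to 7 for hairpin 1 and from 0 to 5 for the pooled knockdown in macrophages, and from 0 to 2 for the difference between classes. With a macrophage gate of at least 10 C1q UMIs the hairpin 2 count was 5 and that of hairpin 2 against hairpin 1 was 3. The latter was also 3 in macrophages without a UMI of Grem1, Cdkn2a, S100a8 or S100a9. Below the median MHC class II score the hairpin 2 count was 2 and that of hairpin 2 against hairpin 1 was 0. Above it the hairpin 2 count was 3. The splits at the median, the cells without C1q UMIs and the scaling without TMM factors were chosen after seeing the data. Without TMM factors the hairpin 2 count in macrophages was 4, and the median log2 fold change of all genes in the 6 hairpin contrasts was -0.04 to 0.09. Without 1 library at a time the count ranged from 2 to 17 for hairpin 2 in tumour cells, and in macrophages from 3 to 5 for hairpin 1, from 0 to 8 for hairpin 2 and from 1 to 8 for hairpin 2 against hairpin 1. The latter was 2 without hairpin 1 anti-PD1, 1 without hairpin 2 IgG and 2 without hairpin 2 anti-PD1. The hairpin 1 count in macrophages was 5 without control anti-PD1. A replicate block by line in the anti-PD1 fits left 0 members called in tumour cells and 0 in macrophages, so the pairing changed no call. With 2 libraries per line and 2 controls, changes of members with few UMIs, Gsta4 and Gpx3, are limited by counting depth.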
